A study of Mus musculus with 64 samples.

Results

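The tumour necrosis factor (TNF) superfamily genes described here are 4 ligands, Tnf, Tnfsf10, Tnfsf9 and Tnfsf15, and 3 receptors, Tnfrsf1a, Tnfrsf1b and Fas. They are 7 of 18820 genes that could be named on the array, each taken from the probe set that carries its symbol alone, and each had 1 such probe set. Their probe sets and Entrez Gene identifiers were 10450501 and 21926 for Tnf, 10491091 and 22035 for Tnfsf10, 10446229 and 21950 for Tnfsf9, 10513722 and 326623 for Tnfsf15, 10541895 and 21937 for Tnfrsf1a, 10518300 and 21938 for Tnfrsf1b, and 10462603 and 14102 for Fas. The members were chosen by name and not by their values, although results of these arrays were known when the set was drawn up.

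Ligands of this superfamily are mostly membrane proteins that assemble as trimers and gather receptors on the same or a neighbouring cell. Receptors with a cytoplasmic death domain, such as Tnfrsf1a and Fas, can start caspase-driven or necroptotic death, whereas most members, Tnfrsf1b among them, recruit TRAF adaptors and ubiquitin ligases that activate NF-kB and MAP kinases. Macrophages are a main source of TNF, which is cut from the cell surface by the protease Adam17, and they also respond to it through both of its receptors.

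The cells were macrophages that had been grown out of femoral marrow taken from male mice 7 to 8 weeks of age. CSF1, also called M-CSF, is the cytokine that drives marrow cells to this fate. No transgene or deleted gene is named for either strain. On day 6 of culture cells were seeded at 200000 per well with CSF1 at 10000 U/ml, and on day 7 they were treated. BALB/c cells received interferon-beta (IFN-beta, type I) at 10 U/ml, interferon-gamma (IFN-gamma, type II) at 10 U/ml, or lipopolysaccharide (LPS, a component of the bacterial outer membrane that is recognised by Tlr4) at 5 ng/ml. LPS was the only stimulus given to C57BL/6 cells, at 0.5, 5 or 50 ng/ml. Wells were harvested at 1, 2, 4, 8 and 24 h after treatment, and untreated wells of each strain at 0 h. This gives 32 groups of 2 wells and 64 arrays, 1 well on each. Untreated wells at later times are not among the samples, so changes that culture time alone brings are part of every difference from 0 h. As far as the labels tell, the wells of a strain came from the same preparation. P-values therefore measure the spread between wells, and a strain cannot be told apart from its preparation. RNA of whole wells was measured, so fewer cells of a type and less RNA per cell cannot be told apart.

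The macrophage label was checked against markers. All 8 macrophage markers had mean levels above the 40th percentile of the arrays (log2 4.19), and their summed intensity lay between 30500 and 42700. None of 3 B cell markers and 2 of 4 T cell markers reached that percentile, with sums between 29 and 45.9 and between 80 and 176. Probe sets that carry no gene name split the arrays in a way the groups do not explain, and the 2 sides, of 53 and 11 arrays, are called the larger and the smaller batch here. The smaller one held both IFN-beta arrays of 4 h and 1 array in each of 9 other groups. In 5 groups the 2 arrays differed by more than 1.5 log2 in at least 10 genes after adjustment for the batch. The array farther in those genes from the neighbouring times (1 such time at 1 h and 24 h) was taken as the one that stood apart. In BALB/c it was replicate 1 at 2 h and replicate 2 at 4 h of IFN-gamma (12 and 14 genes). In C57BL/6 it was always replicate 1, at 1 h of 0.5 ng/ml (25 genes), at 24 h of 5 ng/ml (30) and at 1 h of 50 ng/ml (80). Where leaving them out changes a call, or moves a difference printed below by more than 1.5 times, the value without them is given. At 2 and 4 h of IFN-gamma and at 1 h of 0.5 ng/ml the array that remains is in the smaller batch. Such values then rest on 1 array of that batch, whereas the 0 h arrays of both strains are in the larger one. The batch was not adjusted for in them.

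Upstream sequence of 4 members is shown. In 3 of them, all receptors, it holds an exact match to a short pattern that interferon-activated factors can bind. The other, Tnfsf10, made the widest interferon response and has no exact match in this window. Sequences that match a pattern only in part were not searched for, and binding was not measured. Of the 7 members 6 were matched to the RefSeq promoter table of build GRCm38.p6, which runs from 250 bases before to 50 bases after the annotated start, and Tnfsf9 was not. Capitals mark matches, on either strand, to the gamma-activated site (GAS) motif TTCNNNGAA or to the GAAANNGAA core of the interferon-stimulated response element (ISRE). Sequences are printed 5′ to 3′ on the strand of the gene. Tnfrsf1a lies at chr6:125349473-125349772 on the plus strand, Tnfrsf1b at chr4:145246821-145247120 on the minus strand, Fas at chr19:34290409-34290708 on the plus strand and Tnfsf10 at chr3:27316827-27317126 on the plus strand.
Tnfrsf1a: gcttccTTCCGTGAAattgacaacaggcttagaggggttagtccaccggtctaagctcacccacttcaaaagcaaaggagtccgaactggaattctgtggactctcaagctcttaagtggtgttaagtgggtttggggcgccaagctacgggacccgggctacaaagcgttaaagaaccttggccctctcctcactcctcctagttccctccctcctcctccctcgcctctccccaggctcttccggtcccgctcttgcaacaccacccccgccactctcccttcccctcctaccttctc
Tnfrsf1b: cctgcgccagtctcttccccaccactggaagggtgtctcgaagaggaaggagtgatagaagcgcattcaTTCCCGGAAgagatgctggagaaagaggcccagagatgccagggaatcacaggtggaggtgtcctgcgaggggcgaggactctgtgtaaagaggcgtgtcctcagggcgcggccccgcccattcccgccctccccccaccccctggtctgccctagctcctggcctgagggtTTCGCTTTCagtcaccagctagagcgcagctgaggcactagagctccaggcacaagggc
Fas: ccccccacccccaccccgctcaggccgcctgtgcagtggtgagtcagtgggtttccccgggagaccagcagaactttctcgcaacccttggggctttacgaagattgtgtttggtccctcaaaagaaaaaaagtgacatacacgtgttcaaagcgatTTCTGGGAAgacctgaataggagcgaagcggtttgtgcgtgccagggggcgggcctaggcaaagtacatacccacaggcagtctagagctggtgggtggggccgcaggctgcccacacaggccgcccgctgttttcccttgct
Tnfsf10: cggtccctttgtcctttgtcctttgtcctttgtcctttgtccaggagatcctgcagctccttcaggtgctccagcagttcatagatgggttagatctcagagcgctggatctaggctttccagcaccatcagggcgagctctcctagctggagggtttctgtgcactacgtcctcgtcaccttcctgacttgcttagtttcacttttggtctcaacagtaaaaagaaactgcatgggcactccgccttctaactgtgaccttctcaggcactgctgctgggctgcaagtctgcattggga

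The GAS matches were TTCCGTGAA at base -244 of Tnfrsf1a, TTCCCGGAA at -181 of Tnfrsf1b and TTCTGGGAA at -93 of Fas, counted from the annotated start. Tnfrsf1b also held an ISRE core on the opposite strand, TTCGCTTTC, at -9, which did not overlap its GAS match. Its transcript was called under neither interferon, as given below. A GAS match was found in 3 of the 6 members, against 8.3% of all 32851 promoters of the same length, and an ISRE core in 1 of the 6, against 8.56%. The NF-kB consensus was in 0 of the 6, against 8.46%, which says only that these letters are not in these windows.

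In BALB/c cells each stimulus changed most of the members, but not the same ones to the same extent. IFN-beta raised Tnfsf10 117-fold and Tnfsf15, Fas, Tnf and Tnfrsf1a between 2.19- and 6.25-fold, all with their largest change at 4 h. IFN-gamma raised the same 5 genes, with Tnfsf10 at 18.7-fold and Fas at 6.24-fold. LPS raised all 4 ligands between 7.74- and 52.3-fold and the receptors Fas and Tnfrsf1b, and it was the stimulus under which Tnfsf9 and Tnfrsf1b passed the threshold. A gene was called when limma's F-test over the 5 times of a course gave an adjusted p under 0.05 and its log2 change reached 1 at 1 or more times. By that rule 5 members rose with IFN-beta, 5 with IFN-gamma and 6 with LPS, where 7.92%, 5.37% and 17.2% of all genes were called in either direction. Values below are log2 intensities of replicates 1 and 2, differences are log2 ± SE between group means of 2 arrays, and an adjusted p stated for a time tests that time alone.

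Tnf encodes the founding ligand of the superfamily and binds both Tnfrsf1a and Tnfrsf1b. With LPS its arrays read 10.22 and 9.99 at 0 h, 12.96 and 13.16 at 1 h, 12.78 and 12.91 at 2 h, 12.86 and 12.77 at 4 h, 13.02 and 12.99 at 8 h, and 12.29 and 12.37 at 24 h. The rise was complete at the earliest time sampled and all 10 treated arrays stayed above both 0 h arrays. The largest difference from 0 h was 2.95 ± 0.14 at 1 h, 7.74-fold (adjusted p = 4.21e-21 over the course), and at 24 h it was 2.22 ± 0.14 (adjusted p = 9.97e-17). With IFN-beta Tnf read 10.06 and 9.77 at 1 h, 10.11 and 9.85 at 2 h, 11.48 and 11.41 at 4 h, 10.89 and 10.55 at 8 h, and 10.00 and 9.85 at 24 h. Only the 4 h and 8 h arrays lay above both 0 h arrays. The change was 1.34 ± 0.14 at 4 h (adjusted p = 1.85e-12 over the course) and 0.62 ± 0.14 at 8 h. With IFN-gamma it read 10.55 and 10.32 at 1 h, 11.01 and 10.39 at 2 h, 11.50 and 11.75 at 4 h, 11.33 and 11.35 at 8 h, and 10.86 and 10.91 at 24 h. All of these arrays exceeded both 0 h arrays, and the change was 1.52 ± 0.14 at 4 h (adjusted p = 3.23e-11 over the course; 1.39 without the arrays that stood apart) and still 0.78 ± 0.14 at 24 h (adjusted p = 3.49e-05).

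Tnfsf10 encodes TRAIL, which starts death through its receptor Tnfrsf10b in mice. With IFN-beta its arrays read 4.84 and 4.22 at 0 h, 7.55 and 8.27 at 1 h, 8.82 and 8.82 at 2 h, 11.45 and 11.35 at 4 h, 10.19 and 10.15 at 8 h, and 6.18 and 6.33 at 24 h. It climbed at every step to 4 h and lay far below that peak at 24 h, yet all arrays stayed above 0 h. The change was 3.38 ± 0.37 at 1 h (adjusted p = 2.3e-08), 6.87 ± 0.37 at 4 h (adjusted p = 1.27e-17 over the course) and 1.73 ± 0.37 at 24 h (adjusted p = 0.000886). With IFN-gamma it read 5.23 and 5.48 at 1 h, 6.59 and 5.72 at 2 h, 8.76 and 8.75 at 4 h, 8.44 and 8.36 at 8 h, and 8.15 and 8.32 at 24 h. The rise was smaller than with IFN-beta up to 8 h, but the level at 24 h was close to that at 4 h. It amounted to 4.22 ± 0.37 at 4 h (adjusted p = 3.44e-13 over the course) and 3.71 ± 0.37 at 24 h. With LPS Tnfsf10 read 4.81 and 5.12 at 1 h, 4.45 and 4.35 at 2 h, 8.98 and 8.95 at 4 h, 10.23 and 10.24 at 8 h, and 8.32 and 8.71 at 24 h. The arrays of the first 2 h overlapped those of 0 h and the later ones did not. Differences from 0 h were 0.43 ± 0.37 at 1 h (adjusted p = 0.602), -0.14 ± 0.37 at 2 h (adjusted p = 0.928) and 5.71 ± 0.37 at 8 h, 52.3-fold (adjusted p = 6.3e-19 over the course).

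Tnfsf9 encodes 4-1BBL, a co-stimulatory ligand for Tnfrsf9 on T cells. With LPS its arrays read 6.63 and 6.71 at 0 h, 11.95 and 12.10 at 1 h, 11.58 and 11.67 at 2 h, 10.30 and 10.39 at 4 h, 8.11 and 7.88 at 8 h, and 7.24 and 7.64 at 24 h. The response was highest at 1 h and smaller at each later time. It was 40.9-fold at 1 h (5.35 ± 0.23, adjusted p = 2.47e-23 over the course), 12.7-fold at 4 h (3.67 ± 0.23) and 1.71-fold at 24 h (0.77 ± 0.23, adjusted p = 0.00709). Under either interferon no array came near the LPS levels of 1 to 4 h. IFN-beta arrays lay between 6.15 and 7.26, and the largest difference from 0 h was 0.55 ± 0.23 at 1 h (adjusted p = 0.723 at that time). IFN-gamma arrays lay between 5.90 and 7.51, with 0.72 ± 0.23 at 24 h (adjusted p = 0.0254 at that time), and without the arrays that stood apart the largest difference was -0.77 ± 0.17, at 2 h. Both courses passed the F-test (adjusted p = 0.00757 and 0.00834) without reaching a change of 1, so Tnfsf9 was not called in either.

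Tnfsf15 encodes TL1A, the ligand of the death domain receptor Tnfrsf25. With LPS its arrays read 4.27 and 4.62 at 0 h, 5.59 and 5.69 at 1 h, 6.69 and 6.61 at 2 h, 10.00 and 10.05 at 4 h, 9.28 and 9.13 at 8 h, and 7.90 and 7.64 at 24 h. The groups did not overlap at any time, and the level peaked at 4 h, later than Tnf and Tnfsf9. The change was 1.20 ± 0.32 at 1 h (adjusted p = 0.0191) and 5.58 ± 0.32 at 4 h, 47.8-fold (adjusted p = 6.37e-18 over the course). With IFN-beta it read 5.20 and 5.48 at 1 h, 5.58 and 5.69 at 2 h, 7.17 and 7.00 at 4 h, 5.95 and 6.10 at 8 h, and 5.29 and 5.03 at 24 h. The peak was again at 4 h, at 6.25-fold (2.64 ± 0.32, adjusted p = 4.37e-07 over the course). With IFN-gamma the replicates were far apart at 2 h, where they read 6.05 and 4.75, and at 4 h, where they read 4.82 and 6.30. In both groups the higher array is one that stood apart, and the other lay a little above both 0 h arrays. At 24 h, with 5.94 and 6.02, both arrays were higher than at 0 h, by 1.53 ± 0.32 (adjusted p = 0.00138 over the course). That adjusted p was 0.131 when the arrays of this course alone were fitted.

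**Figure D1:**
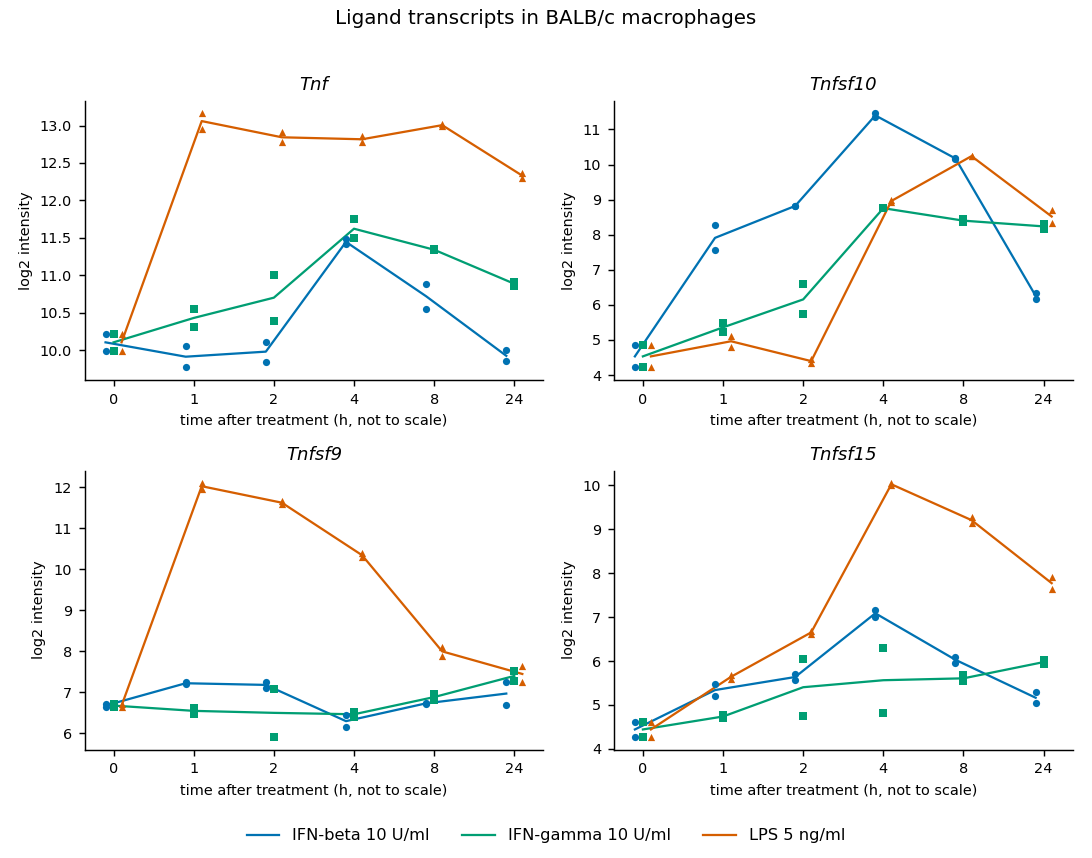
Log2 intensity of the 4 ligands in BALB/c macrophages against time after treatment (h, not to scale) with IFN-beta 10 U/ml, IFN-gamma 10 U/ml or LPS 5 ng/ml. Points are single arrays and lines join the means of 2 arrays. Tnf and Tnfsf9 under LPS are near their highest level at 1 h, Tnfsf15 peaks at 4 h and Tnfsf10 at 8 h, while Tnfsf10 under IFN-beta peaks at 4 h.

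Tnfrsf1a encodes TNFR1, the death domain receptor of TNF that most tissues express. With IFN-gamma its arrays read 10.53 and 10.42 at 0 h, 11.15 and 11.05 at 1 h, 11.27 and 11.17 at 2 h, 12.02 and 11.86 at 4 h, 11.54 and 11.58 at 8 h, and 11.15 and 11.23 at 24 h. All treated arrays exceeded both 0 h arrays, and the change was 1.47 ± 0.11 at 4 h, 2.77-fold (adjusted p = 4.05e-12 over the course; 1.55 without the arrays that stood apart). IFN-beta gave 10.73 and 10.92 at 1 h, 11.12 and 11.01 at 2 h, 11.66 and 11.54 at 4 h, 11.35 and 11.23 at 8 h, and 10.82 and 10.79 at 24 h. The time pattern was alike and the peak was 2.19-fold (1.13 ± 0.11 at 4 h, adjusted p = 7.07e-10 over the course). LPS gave 10.36 and 10.45 at 1 h, 10.38 and 10.40 at 2 h, 10.58 and 10.48 at 4 h, 11.24 and 11.13 at 8 h, and 10.57 and 10.61 at 24 h. Among the LPS times the 8 h arrays stood out, by 0.71 ± 0.11 (adjusted p = 9.48e-07), which is under the minimum change, so Tnfrsf1a was not called.

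Tnfrsf1b encodes TNFR2, the TNF receptor without a death domain that is found mainly on blood and endothelial cells. With LPS its arrays read 10.91 and 11.07 at 0 h, 11.72 and 11.68 at 1 h, 12.01 and 11.98 at 2 h, 12.40 and 12.46 at 4 h, 12.78 and 12.73 at 8 h, and 12.74 and 12.82 at 24 h. The level climbed to 8 h and had not come down at 24 h. The change at 24 h was 1.79 ± 0.16, 3.46-fold (adjusted p = 3.56e-12 over the course). Under IFN-beta it read 10.56 and 10.51 at 4 h and 11.45 and 11.39 at 8 h, below and then above both 0 h arrays, with differences of -0.46 ± 0.16 (adjusted p = 0.0371) and 0.43 ± 0.16 (adjusted p = 0.0654). Under IFN-gamma replicate 2 at 4 h, an array that stood apart, read 11.25 and replicate 1 read 10.18. Both 8 h arrays, at 10.59 and 10.51, were below 0 h by 0.44 ± 0.16 on the log2 scale, which did not pass (adjusted p = 0.0682 at 8 h and 0.321 over the course). The value over the course includes replicate 2 at 4 h, and at all other IFN-gamma times both arrays lay below both 0 h arrays. Leaving out the arrays that stood apart left 1 array of the smaller batch at 2 h and at 4 h. Tnfrsf1b then differed from 0 h by -0.37 and -0.81 at those times, still under the minimum. Neither interferon course was called.

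Fas encodes the death receptor of Fas ligand. With LPS its arrays read 5.62 and 5.81 at 0 h, 6.69 and 7.07 at 1 h, 7.21 and 7.21 at 2 h, 8.64 and 8.30 at 4 h, 8.75 and 8.74 at 8 h, and 8.13 and 8.51 at 24 h. All treated arrays were above 0 h and the change was 3.03 ± 0.21 at 8 h, 8.16-fold (adjusted p = 1.65e-15 over the course). IFN-gamma gave 6.79 and 6.84 at 1 h, 7.12 and 6.96 at 2 h, 8.39 and 8.32 at 4 h, 7.36 and 7.44 at 8 h, and 7.11 and 6.86 at 24 h. Up to 4 h this course ran beside the LPS course, and its change was 2.64 ± 0.21 at 4 h, 6.24-fold (adjusted p = 6.97e-11 over the course; 2.68 without the arrays that stood apart). IFN-beta gave 6.35 and 6.67 at 1 h, 6.56 and 6.68 at 2 h, 7.50 and 7.84 at 4 h, 6.42 and 6.56 at 8 h, and 5.18 and 6.08 at 24 h. The 4 h change was 1.95 ± 0.21, 3.87-fold (adjusted p = 2.19e-09 over the course), and at 24 h the arrays overlapped those of 0 h.

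**Figure D2:**
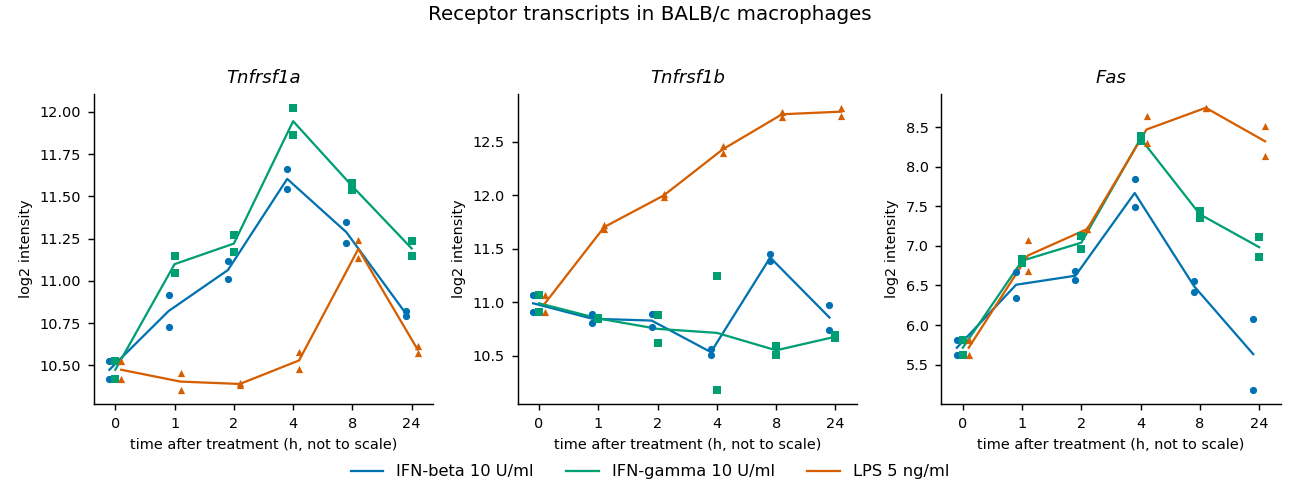
Log2 intensity of the 3 receptors in BALB/c macrophages against time after treatment (h, not to scale), drawn as for the ligands with single arrays as points and lines through the means of 2. Tnfrsf1a peaks at 4 h under both interferons and at 8 h under LPS, Tnfrsf1b is raised by LPS up to 24 h, and Fas rises under all 3 stimuli.

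The largest IFN-beta changes of these members fall at 4 h, the time whose arrays both lie in the smaller batch. With the batch as a covariate the 4 h changes were 1.37 for Tnf, 7.02 for Tnfsf10, 3.17 for Tnfsf15, 1.07 for Tnfrsf1a and 1.71 for Fas, all still called. In the larger batch alone, where IFN-beta has no 4 h array, Tnfsf10 (5.64 at 8 h) and Tnfsf15 (1.58 at 8 h) were called, whereas Tnf (0.62 at 8 h), Tnfrsf1a (0.81 at 8 h) and Fas (0.91 at 2 h) stayed under a change of 1. The summed natural killer cell list, of whose 4 markers 1 was above the 40th percentile (Klrk1), was 271 and 302 at 4 h of IFN-beta, 143 and 225 at 4 h and 205 and 232 at 24 h of IFN-gamma, and 161 and 167 at 8 h of LPS, against 41.4 and 48.4 at 0 h. Ncr1, Klrb1c and Gzma, which define those cells, never exceeded log2 4.06. The stromal list, with 4 of 5 markers above the percentile, summed to 711 and 738 at 8 h of LPS, against 164 and 176 at 0 h, and the dendritic cell list, with 2 of 5, to 566 and 694 at 24 h of LPS, against 94.8 and 104 at 0 h. In no array did the stromal markers Col1a1, Col1a2 and Col3a1 exceed log2 5.54, while Pdgfrb reached 9.20 and Dcn 7.80. The dendritic cell markers Flt3, Zbtb46, Xcr1 and Siglech never exceeded 4.99, while Ccr7 reached 9.32. The part of these lists in the changes of the members was not tested.

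IFN-beta was set against IFN-gamma at matching times in the same strain. Tnfsf10 was higher with IFN-beta from 1 to 8 h and lower at 24 h, Tnfsf15 was higher at 4 h, and Fas was lower at 24 h. These were 3 of 7 members called, 2 higher and 1 lower, where 3.96% of all genes were called. Tnfsf10 differed by 2.66 ± 0.37 at 2 h, 6.34-fold (adjusted p = 5.26e-12 over the pair), and by -1.98 ± 0.37 at 24 h (adjusted p = 0.000151), where it read 6.18 and 6.33 with IFN-beta and 8.15 and 8.32 with IFN-gamma. Without the arrays that stood apart, the 2 h difference was 3.09. Tnfsf15 differed by 1.52 ± 0.32 at 4 h (adjusted p = 0.00144 over the pair), and by 2.26 without the arrays that stood apart. Without the other 4 h array of IFN-gamma, replicate 1, the difference was 0.78 and under the minimum. Fas differed by -1.35 ± 0.21 at 24 h (adjusted p = 1.33e-06 over the pair), and by -0.90 without replicate 1 of IFN-beta at 24 h, which again is under the minimum. Tnf fell short of the minimum at -0.96 ± 0.14 at 24 h (adjusted p = 1.58e-06 at that time), as did Tnfrsf1b at 0.87 ± 0.16 at 8 h (adjusted p = 0.000222) and Tnfrsf1a at -0.38 ± 0.11 at 24 h (adjusted p = 0.0166). For Tnfsf9 the difference was 0.68 ± 0.23 at 2 h (adjusted p = 0.131), and it was 1.27 and called without replicate 1 of IFN-gamma at 2 h.

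Each interferon was then set against LPS 5 ng/ml. All 7 members differed in both pairs, where 14.3% of genes were called between IFN-beta and LPS and 13.6% between IFN-gamma and LPS. With IFN-beta 2 members were higher at their largest difference and 5 lower, and with IFN-gamma 1 was higher and 6 lower. The widest gap was in Tnfsf9 at 1 h, where its arrays read 7.24 and 7.20 with IFN-beta and 6.46 and 6.62 with IFN-gamma, against 11.95 and 12.10 with LPS. This is 28-fold lower with IFN-beta (-4.81 ± 0.23, adjusted p = 2.13e-24 over the pair) and 44.8-fold lower with IFN-gamma (-5.48 ± 0.23, adjusted p = 2.08e-25). At 24 h these gaps were -0.48 ± 0.23 (adjusted p = 0.133) and -0.05 ± 0.23 (adjusted p = 0.916). Tnf was 8.85-fold lower with IFN-beta and 6.18-fold lower with IFN-gamma at 1 h. Tnfsf15 was 9.06-fold lower with IFN-beta at 8 h (-3.18 ± 0.32) and 22-fold lower with IFN-gamma at 4 h (-4.46 ± 0.32, and -5.20 without the arrays that stood apart).

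Tnfsf10 went both ways between interferon and LPS. With IFN-beta it was 21.5-fold higher at 2 h (4.42 ± 0.37, adjusted p = 3.42e-15 over the pair), not separable at 8 h (-0.07 ± 0.37, adjusted p = 0.936) and 4.79-fold lower at 24 h (-2.26 ± 0.37, adjusted p = 3.65e-06). With IFN-gamma it was higher by 1.76 ± 0.37 at 2 h (adjusted p = 0.000743; 1.33 without the arrays that stood apart) and lower by -1.84 ± 0.37 at 8 h (adjusted p = 1.94e-05 over the pair). The receptors split. Tnfrsf1a was higher with the interferons, by 1.07 ± 0.11 (IFN-beta, adjusted p = 4.2e-11 over the pair) and 1.42 ± 0.11 (IFN-gamma, adjusted p = 2.06e-15) at 4 h. Without the smaller batch the IFN-beta value was 0.67 at 2 h and under the minimum. Tnfrsf1b was lower with both, by -1.93 ± 0.16 at 24 h (IFN-beta) and -2.21 ± 0.16 at 8 h (IFN-gamma). Fas was lower with IFN-beta by -2.69 ± 0.21 at 24 h. With IFN-gamma Fas did not differ detectably from LPS at 1, 2 or 4 h (differences between -0.17 and -0.07 ± 0.21, adjusted p between 0.713 and 0.919), and was lower by -1.35 ± 0.21 at 8 h.

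Other genes of the pathway were taken from 3 lists. Of 14 other ligands 12 were measured, of 25 other receptors 25, and of 32 signalling and processing genes 28, the rest being not analysed here. With IFN-beta 2 of 12 ligands rose, Tnfsf8, the ligand of Cd30 (2.97 ± 0.23 at 4 h, adjusted p = 1.01e-12), and Tnfsf18, the ligand of Gitr (2.53 ± 0.27 at 4 h). Of 25 receptors 3 rose and 1 fell. The co-stimulatory receptor Cd40 rose 17.4-fold at 8 h (4.12 ± 0.25), Tnfrsf14 by 1.08 at 8 h and Tnfrsf23 by 1.05 at 24 h, while Relt fell by 1.40 at 4 h. Of 28 signalling genes 8 rose and 0 fell, among them the necroptosis effector Mlkl (1.97 ± 0.16 at 8 h), the caspase-8 inhibitor Cflar (1.60 ± 0.15 at 4 h) and Rnf31, the catalytic subunit of the linear ubiquitin ligase (1.26 ± 0.14 at 8 h). Of all genes 4.05% rose and 3.87% fell with IFN-beta. The median largest change was 0.32 for the ligands, -0.23 for the receptors and 0.56 for the signalling genes, against -0.19 for all genes.

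With IFN-gamma 3 of 12 other ligands, 2 of 25 receptors and 3 of 28 signalling genes rose, and 0 fell. Tnfsf13b, the B cell survival factor BAFF, rose 4.2-fold at 24 h (2.07 ± 0.16, adjusted p = 2.12e-16), and Cd40 rose 15.4-fold at 4 h (3.95 ± 0.25). Mlkl rose by 1.63 at 8 h, Cflar by 1.15 at 4 h and Rhbdf2, the partner of Adam17 in TNF release, by 1.05 at 8 h. With LPS 4 ligands rose and 1 fell, 6 receptors rose and 6 fell, and 12 signalling genes rose and 1 fell. Cd40 rose 82.8-fold at 8 h (6.37 ± 0.25, adjusted p = 5.2e-22) and Tnfsf4, the ligand of Ox40 on T cells, rose 7.58-fold at 4 h (2.92 ± 0.21), while Tnfsf14 fell by 1.44 at 24 h and Tnfrsf26 by 1.87 at 8 h. The feedback inhibitors Tnfaip3 and Nfkbia rose by 3.79 ± 0.13 and 2.97 ± 0.12 at 1 h, and the adaptor Traf1 and the ubiquitin ligase Birc3 rose by 4.10 ± 0.19 and 2.56 ± 0.11 at 8 h. Of all genes 3.1% rose and 2.27% fell with IFN-gamma, and 7.44% rose and 9.72% fell with LPS. Median largest changes under LPS were 0.59, -0.33 and 0.64 for the 3 lists, against -0.19 for all genes, and under IFN-gamma 0.09, -0.32 and 0.43, against -0.19.

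The C57BL/6 cells received LPS at 3 doses, which shows how the members depend on dose. Tnfsf10 and Tnfsf15 were higher at 50 than at 0.5 ng/ml in the middle of the course, Tnfsf9 was higher at 1 h, and no receptor was called between doses. Tnf, Tnfsf9, Tnfsf15, Tnfrsf1b and Fas rose at each dose, and Tnfsf10 had its largest change downward from 0 h. These 6 of 7 members were called at each dose, where 9.11% of genes were called at 0.5 ng/ml, 14.3% at 5 ng/ml and 15% at 50 ng/ml. The 0 h arrays of this strain bear on all of these changes. Tnfsf10 read 8.12 and 7.86 there, above every LPS array of 1 and 2 h at all doses, which lay between 3.49 and 6.26. Where the 0 h level came from was not tested, so changes were also counted from 1 h of the same dose. From that baseline Tnfsf10, Tnfsf15, Tnfrsf1b and Fas were called upward and Tnfsf9 downward at each dose, and Tnf was not called. In those courses 10.4% of genes were called at 0.5 ng/ml, 14.9% at 5 ng/ml and 14.6% at 50 ng/ml. The sums of the stromal and dendritic cell lists moved along the courses here too, with the collagen genes and the dendritic cell markers other than Ccr7 again low. The stromal list summed to 231 in both arrays at 8 h of 0.5 ng/ml, to 382 and 430 at 8 h of 5 ng/ml and to 261 and 277 at 8 h of 50 ng/ml, against 132 and 139 at 0 h. The dendritic cell list summed to 323 and 325, 537 and 541, and 540 and 637 at 24 h in rising order of dose, against 134 and 147 at 0 h. Their part in the changes of the members was not tested.

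Tnf read 12.02 and 11.96 at 0 h. At 1 h it read 12.32 and 12.49 at 0.5 ng/ml, 13.10 and 13.06 at 5 ng/ml, and 13.06 and 13.09 at 50 ng/ml. At 2 h the doses read 13.10 and 13.04, 13.26 and 13.32, and 13.23 and 13.17. All these arrays lay above 0 h, and at 1 h the lowest dose was below the other doses. The 2 h changes from 0 h were 1.09, 1.30 and 1.22 ± 0.14, in rising order of dose (adjusted p = 1.07e-08, 2.37e-10 and 2.13e-09 over the courses). Counted from 1 h they were 0.67, 0.21 and 0.13, none of which reached the minimum. Between doses the difference at 1 h was 0.67 ± 0.14 for 50 against 0.5 ng/ml (adjusted p = 0.00221) and 0.68 ± 0.14 for 5 against 0.5 ng/ml (adjusted p = 0.00351), under the minimum change, and -0.01 ± 0.14 for 50 against 5 ng/ml. They were 0.61, 0.60 and 0.01 without the arrays that stood apart.

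Tnfsf10 after 4 h read 5.81 and 5.91 at 0.5 ng/ml, 7.63 and 6.90 at 5 ng/ml, and 8.90 and 9.02 at 50 ng/ml. After 8 h it read 8.69 and 9.17, 10.45 and 10.41, and 10.81 and 10.97. At both times the arrays of the 3 doses were in the order of dose with no overlap. The 8 h changes from 0 h were 0.94 ± 0.37 at 0.5 ng/ml (adjusted p = 0.0662), 2.44 ± 0.37 at 5 ng/ml (adjusted p = 7.73e-07) and 2.90 ± 0.37 at 50 ng/ml (adjusted p = 2.19e-08). The largest changes from 0 h were falls, -3.72 ± 0.37 at 2 h, -3.95 ± 0.37 at 1 h and -3.95 ± 0.37 at 2 h in the same order. Counted from 1 h the direction turned at every dose, to 8 h rises of 4.00, 6.39 and 5.54 ± 0.37 (adjusted p = 9.89e-15, 1.88e-18 and 6.29e-19 over the courses). The rises were 4.73, 6.39 and 6.44 without the arrays that stood apart. At 1 h the arrays of the doses overlapped and at 2 h those of 5 ng/ml lay just above the others, and replicate 1 of LPS 50 ng/ml at 1 h, which stood apart, read 6.26 beside 4.45. Between doses, 50 exceeded 0.5 ng/ml by 3.10 ± 0.37 at 4 h, 8.55-fold (adjusted p = 5.02e-08 over the pair), 5 exceeded 0.5 ng/ml by 1.5 ± 0.37 at 8 h (adjusted p = 0.00087), and 50 exceeded 5 ng/ml by 1.69 ± 0.37 at 4 h (adjusted p = 0.0118). The last call was lost without replicate 2 of either group at 4 h (adjusted p = 0.0551 without that of 50 ng/ml and 0.104 without that of 5 ng/ml) and when the 2 courses were fitted alone (adjusted p = 0.283). By dose pair 3 members were called for 50 against 0.5 ng/ml, 3 for 5 against 0.5 ng/ml and 1 for 50 against 5 ng/ml, all higher at the higher dose, where 3.72%, 2.16% and 0.228% of genes were called.

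Tnfsf9 read 8.36 and 8.16 at 0 h. At 1 h it read 10.07 and 10.26 at 0.5 ng/ml, 11.59 and 11.38 at 5 ng/ml, and 11.39 and 11.59 at 50 ng/ml. The lowest dose was below the others, which overlapped. At 1 h both 50 and 5 ng/ml exceeded 0.5 ng/ml by 1.33 ± 0.23 (adjusted p = 0.00012 and 0.000608 over the pairs), and from 2 h on no difference of either from 0.5 ng/ml passed (adjusted p between 0.118 and 0.954 at the single times). Without the arrays that stood apart the 1 h differences were 1.33 for 50 and 1.23 for 5 ng/ml, and 3 smaller ones passed at their time. These were 0.60 (adjusted p = 0.0131) and -0.52 (adjusted p = 0.00552) for 50 ng/ml at 2 and 8 h, and 0.56 for 5 ng/ml at 2 h (adjusted p = 0.0314). At 2 h the rise from 0 h was 2.90, 3.46 and 3.50 ± 0.23 in rising order of dose, and at 8 h it was 0.97, 0.73 and 0.44 ± 0.23. Counted from 1 h the largest changes were falls, of -1.43, -2.70 and -2.98 ± 0.23 at 24 h (adjusted p = 4.78e-11, 1.61e-15 and 6.97e-17 over the courses).

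Tnfsf15 read 6.59 and 6.29 at 0 h. At 4 h it read 7.89 and 7.44 at 0.5 ng/ml, 9.54 and 9.33 at 5 ng/ml, and 9.48 and 9.70 at 50 ng/ml, so the lowest dose again stood below the others. At that time 50 ng/ml exceeded 0.5 ng/ml by 1.92 ± 0.32, and 5 ng/ml exceeded it by 1.77 ± 0.32 (adjusted p = 1.28e-05 and 5.52e-05 over the pairs). At 24 h the arrays read 8.25 and 7.67, 8.22 and 8.17, and 8.37 and 8.50, and the dose differences did not pass (adjusted p between 0.458 and 0.916). The largest rise from 0 h was 1.57 ± 0.32 at 8 h of 0.5 ng/ml, 3.06 ± 0.32 at 8 h of 5 ng/ml and 3.15 ± 0.32 at 4 h of 50 ng/ml. At 1 h it was lower than at 0 h, by -1.37 ± 0.32 at 0.5 ng/ml (adjusted p = 0.0117) and by -1.58 ± 0.32 at 5 ng/ml (adjusted p = 0.00156). Without the arrays that stood apart the 1 h fall was -1.84 at 0.5 ng/ml, which then exceeded the 8 h rise of that dose, and -1.49 at 50 ng/ml, against -0.90 with them. Counted from 1 h the 8 h rises were 2.94, 4.64 and 3.71 ± 0.32 in rising order of dose.

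The receptors peaked late at each dose. Tnfrsf1a read 11.31 and 11.45 at 8 h of 0.5 ng/ml, 11.58 and 11.52 of 5 ng/ml and 11.65 and 11.62 of 50 ng/ml, against 10.95 and 10.90 at 0 h. Those changes of 0.45, 0.62 and 0.71 ± 0.11 passed at 8 h (adjusted p = 0.00196, 1.29e-05 and 1.37e-06) but stayed under the minimum. Tnfrsf1b read 12.57 and 12.56, 12.86 and 12.86, and 12.62 and 12.78 at 8 h, against 11.59 and 11.50 at 0 h, a rise of 1.02, 1.32 and 1.16 ± 0.16. Fas read 9.12 and 8.70, 8.98 and 9.31, and 9.14 and 9.34 at 8 h, against 6.66 and 6.89 at 0 h, a rise of 2.14, 2.37 and 2.47 ± 0.21. Counted from 1 h the 8 h rises were 0.78, 0.83 and 0.88 ± 0.11 for Tnfrsf1a, 1.55, 1.66 and 1.12 ± 0.16 for Tnfrsf1b, and 2.27, 2.33 and 2.66 ± 0.21 for Fas, so the calls were those made from 0 h. At 1 and 2 h Fas arrays read between 6.35 and 7.07 at all doses, and no difference from 0 h passed there (adjusted p between 0.568 and 0.993). Between 50 and 0.5 ng/ml the largest differences were 0.26 ± 0.11 for Tnfrsf1a at 8 h, 0.57 ± 0.16 for Tnfrsf1b at 1 h (0.29 without the arrays that stood apart) and 0.50 ± 0.21 for Fas at 4 h. None of the 3 receptors was called in any pair of doses.

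**Figure D3:**
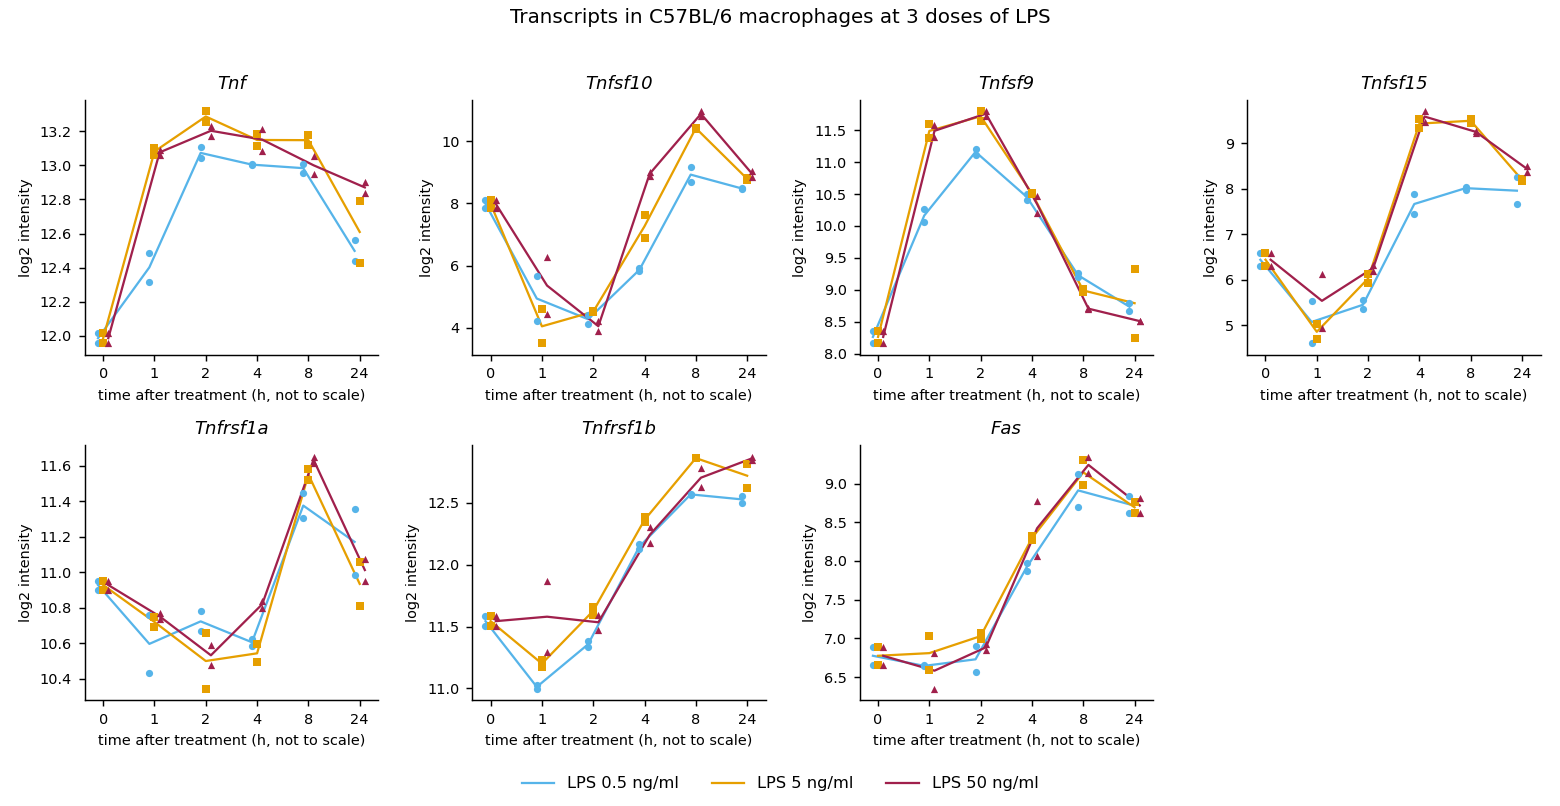
Log2 intensity of the 7 members in C57BL/6 macrophages against time (h, not to scale) at LPS 0.5, 5 and 50 ng/ml, with single arrays as points and lines through the means of 2. Tnfsf10 starts high at 0 h, is low at 1 and 2 h, and separates by dose at 4 and 8 h, and Tnfsf15 at 0.5 ng/ml stays below the other doses at 4 and 8 h.

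The lists of the pathway gave similar counts at 5 and 50 ng/ml. Of 28 signalling genes 10 rose at 0.5 ng/ml, 12 at 5 ng/ml and 12 at 50 ng/ml, with falls in 0, 1 and 1. Tnfaip3 rose by 1.98, 2.57 and 2.52 ± 0.13 at 2 h in rising order of dose. Its 1 h level was higher at 50 than at 0.5 ng/ml by 1.35 ± 0.13 (adjusted p = 2.2e-10 over the pair). Of 12 other ligands 1, 3 and 3 rose and 2, 2 and 1 fell, with Tnfsf4 up by 2.56 ± 0.21 at 4 h of 50 ng/ml and Tnfsf14 down by 2.14 ± 0.20 at 24 h. Of 25 other receptors 5, 4 and 5 rose and 1, 5 and 4 fell. The receptor that fell at 0.5 ng/ml was Cd40 (-2.09 ± 0.25 at 1 h), whose 0 h level was 16.3-fold lower in BALB/c. Changes of these lists were counted from 0 h only, so the 0 h arrays of this strain bear on them. Of all genes 4.02%, 5.88% and 6.26% rose and 5.09%, 8.41% and 8.73% fell in rising order of dose. In that order the median largest change was 0.52, 0.68 and 0.66 for the signalling genes, -0.28, 0.28 and 0.34 for the ligands and 0.16, 0.21 and 0.32 for the receptors, against -0.15, -0.17 and -0.17 for all genes. Tnfrsf10b, the mouse receptor of TRAIL, fell by 1.60 ± 0.11 at 8 h of 50 ng/ml, a time at which Tnfsf10 was high, and at 8 h it was lower at 50 than at 0.5 ng/ml by 1.13 ± 0.11 on the log2 scale (adjusted p = 1.55e-09 over the pair).

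BALB/c and C57BL/6 cells were compared before treatment and under LPS 5 ng/ml. At 0 h Tnf read 10.22 and 9.99 in BALB/c and 12.02 and 11.96 in C57BL/6, and Tnfsf10 read 4.84 and 4.22 in BALB/c and 8.12 and 7.86 in C57BL/6. Neither gene's groups overlapped. In all 5 members were lower in BALB/c, where 2.36% of genes were called. They were Tnf (-1.88 ± 0.14, adjusted p = 1.29e-13), Tnfsf10 (-3.46 ± 0.37, adjusted p = 2.64e-09), Tnfsf9 (-1.59 ± 0.23), Tnfsf15 (-2.0 ± 0.32) and Fas (-1.06 ± 0.21, adjusted p = 0.000398). Fas fell under the minimum without replicate 1 of BALB/c (-0.97) or replicate 2 of C57BL/6 (-0.95). Tnfrsf1a and Tnfrsf1b were lower by 0.45 and 0.55, under the minimum (adjusted p = 0.00364 and 0.0228). Of 28 signalling genes 3 were lower in BALB/c too, Traf1 (-1.42), Tnfaip3 (-1.15) and Nfkbia (-1.05), and Cd40 was 16.3-fold lower (-4.02 ± 0.25). Tnf, Tnfsf10 and Cd40 are also genes that LPS raised in BALB/c, and Tnfsf10 in the untreated C57BL/6 wells lay above the 1 and 2 h LPS arrays of that strain. Whether those wells represent unstimulated C57BL/6 cells was not tested, so the differences hold for these wells and are not shown to hold for the strains. The granulocyte list, with 5 of 6 markers above the 40th percentile, summed to 140 and 141 in BALB/c and to 217 and 272 in C57BL/6 at 0 h, and its part in these differences was not tested.

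Under LPS the strains were compared at each time. At 1 h Tnf read 12.96 and 13.16 in BALB/c and 13.10 and 13.06 in C57BL/6, so the arrays overlapped (-0.02 ± 0.14, adjusted p = 0.956). From 1 to 24 h, 2 of 7 members were called between the strains, where 5.53% of genes were. Tnfsf10 at 4 h read 8.98 and 8.95 in BALB/c and 7.63 and 6.90 in C57BL/6 (1.69 ± 0.37, 3.24-fold, adjusted p = 0.00294 over the pair). Without replicate 2 of C57BL/6 at 4 h this was 1.33 and no longer passed (adjusted p = 0.0527). Tnfsf9 at 24 h read 7.24 and 7.64 in BALB/c and 8.25 and 9.33 in C57BL/6 (-1.35 ± 0.23, adjusted p = 8.61e-06 over the pair). In C57BL/6 replicate 1 at that time stood apart, and the difference was -1.89 without it and -0.80, under the minimum, without replicate 2. At 8 h Tnfsf9 was lower in BALB/c by -0.99 ± 0.23 (adjusted p = 0.0019). Marker sums also differed under LPS. The granulocyte list summed to 133 and 138 in BALB/c and 249 and 291 in C57BL/6 at 4 h, but to 133 and 145 against 130 and 152 at 24 h. At 8 h the stromal list summed to 711 and 738 against 382 and 430, and the dendritic cell list to 180 and 189 against 286 and 296. Their part in the strain differences was not tested.

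Since the strains started from different 0 h levels, responses were compared as changes from 1 h of LPS 5 ng/ml. Tnfsf9 came down further in BALB/c, by -1.53 ± 0.32 at 8 h (adjusted p = 0.0019) and -1.88 ± 0.32 at 24 h (adjusted p = 0.000266 over the pair). Tnfsf10 had gained less in BALB/c at 24 h (-1.20 ± 0.52, adjusted p = 0.0148 over the pair), where that time alone did not pass (adjusted p = 0.233). Its means in BALB/c and C57BL/6 were 4.96 and 4.04 at 1 h, and 8.52 and 8.80 at 24 h. Without replicate 1 of C57BL/6 at 1 h, which read 3.49 beside 4.58, the largest difference turned to 1.31, at 4 h. Tnfsf9 and Tnfsf10 were 2 of 7 members, and 3.77% of genes were called. Of the remaining 5 members none passed, the nearest being Tnfsf15 at -1.21 ± 0.46 at 24 h (adjusted p = 0.123 over the pair). Tnfsf15 did pass with the batch as a covariate (adjusted p = 0.0432), in the larger batch (-1.03, adjusted p = 0.0391), with the compared arrays fitted alone (adjusted p = 0.00161) and without the arrays that stood apart (-1.18, adjusted p = 0.000354).

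**Figure D4:**
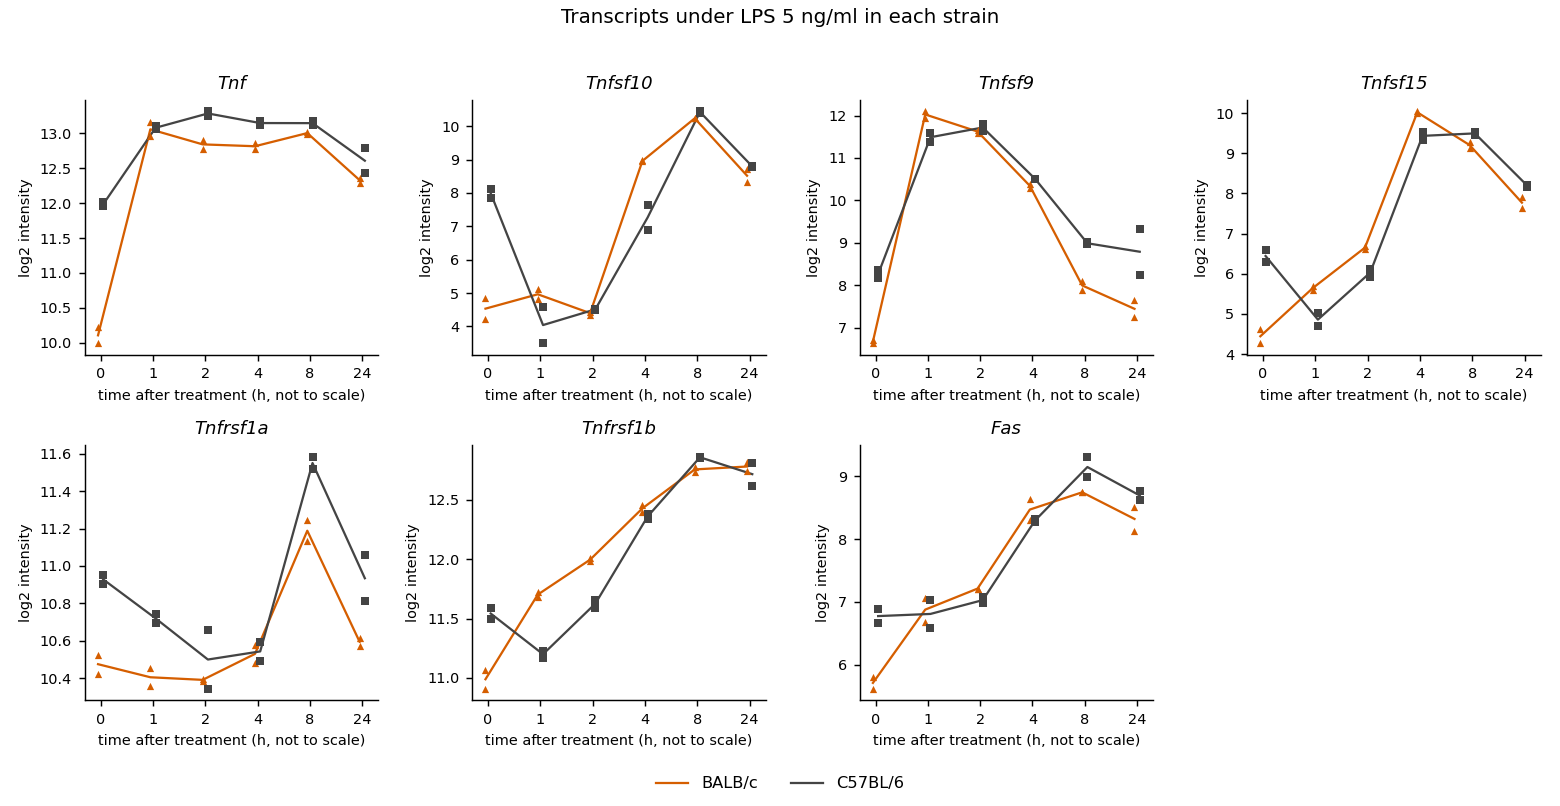
Log2 intensity of the 7 members under LPS 5 ng/ml against time (h, not to scale) in BALB/c and C57BL/6 macrophages, with single arrays as points and lines through the means of 2. BALB/c cells start lower at 0 h in Tnf, Tnfsf10, Tnfsf9 and Tnfsf15, Tnfsf10 is higher in BALB/c at 4 h, and Tnfsf9 is lower in BALB/c at 8 and 24 h.

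Over all 32 groups the members kept different orders. Tnf was highest at 2 h of LPS 5 ng/ml in C57BL/6 (mean 13.29) and lowest at 1 h of IFN-beta (9.91), Tnfsf10 highest at 4 h of IFN-beta (11.40) and lowest at 1 h of LPS 5 ng/ml in C57BL/6 (4.04), and Tnfsf9 highest at 1 h of LPS in BALB/c (12.03) and lowest at 4 h of IFN-beta (6.29). Tnfsf15 was highest at 4 h of LPS in BALB/c (10.02) and lowest in untreated BALB/c cells (4.44). Tnfrsf1a was highest at 4 h of IFN-gamma (11.94) and lowest at 2 h of LPS in BALB/c (10.39), Tnfrsf1b highest at 8 h of LPS 5 ng/ml in C57BL/6 (12.86) and lowest at 4 h of IFN-beta (10.53), and Fas highest at 8 h of LPS 50 ng/ml (9.24) and lowest at 24 h of IFN-beta (5.63). Many neighbours in these orders were not separable. Of 31 neighbouring pairs of groups the arrays overlapped in 22 for Tnf, 18 for Tnfsf10, 16 for Tnfsf9, 20 for Tnfsf15, 27 for Tnfrsf1a, 16 for Tnfrsf1b and 25 for Fas. For Tnfsf10, 3 arrays lay under the 40th percentile of all values, so its lowest levels are the least certain.

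Across the 32 group means, which share strains, treatments and arrays, Pearson's r describes which genes ran alike. Among the members Tnfsf15 ran closest to Fas (r = 0.87) and to Tnfrsf1b (r = 0.84), and Tnf to Tnfsf9 (r = 0.80), while Tnfsf10 and Tnfsf9 had the lowest r of the ligand pairs (-0.53). Among 2348 named genes whose group means had an SD of at least 0.5, those most like Tnf were Nfkbia (r = 0.98), Tnfaip3 (0.96) and the chemokine Cxcl2 (0.94). Those most like Tnfsf10 were the interferon-induced genes Mx1 (r = 0.97) and Ifit2 (0.96), and Daxx (0.96). Tnfsf9 was most like Nfkbiz (r = 0.91), Tnfaip3 (0.89) and Ifrd1 (0.89), and Tnfsf15 most like the cytokine subunit Il27 (r = 0.96), Lpar1 (0.95) and Peli1 (0.94). For Tnfrsf1b they were Traf1 (r = 0.97), Mmp14 (0.96) and Syk (0.96), and for Fas St7 (r = 0.92), Irak2 (0.91) and Pstpip2 (0.91). The group means of Tnfrsf1a had an SD of 0.41, and no gene was named for it.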

How the data were processed

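Biotin-labelled material prepared from total RNA of single culture wells was hybridised to Affymetrix whole-transcript arrays, 64 in all, in 32 groups of 2. The deposited values are intensity per probe set on a linear scale, as read from the values (2.49 to 17782, array medians from 25.6 to 29). Per the submitters' processing notes the authors used Affymetrix Expression Console 1.1. The normalization and the array's genome build are not given in the sources used here, so no probe coordinates are printed. Precision is set by having 2 arrays in a group.

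Log2 of the deposited intensity was used without further normalization or filter. Of 35556 probe sets 21218 carried a lone gene symbol in the platform's annotation, 1881 several and 12457 none. The brightest probe set of each gene was kept, which left 18820 genes. All arrays were fitted together in R 4.3.3 with limma 3.58.1 (data read in with data.table, version 1.17.8; 32 residual degrees of freedom, so the spread is pooled over groups). Courses and pairs were tested with limma's F-test over their 5 times (4 for changes from 1 h) and single times with its moderated test, with Benjamini-Hochberg adjustment over all genes. A call needed an adjusted p under 0.05 and a log2 change of at least 1, and its direction is that of the largest change. Genes on probe sets of several symbols were left out.

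The members, the pathway lists and the marker lists were chosen with earlier results of these data known. From each list up to 4 called genes with the largest change were named per comparison, and for each member the 3 genes with the highest correlation of group means. Replicate numbers were not taken as pairs, since the correlation of replicate differences between groups was over 0.1 in 46 of 496 group pairs (median 0.0046, range -0.47 to 0.55). They do run with the batch. In each group split by it, other than 4 h of IFN-gamma, the array of the smaller batch was replicate 2. Alternatives were centring each array, quantile normalization, a filter on dim genes, the mean of probe sets, separate fits for each comparison, limma's trend and robust settings, a replicate block, a batch term, the 53 arrays of the larger batch, leaving out the arrays that stood apart, 1 h as the baseline, and each array omitted in turn. On simulated data with 18820 genes, the test of the IFN-beta course recovered 48 of 50 genes changed by 1.5 log2 and all 50 changed by 2, 3 or -2, with 0 false calls. That of IFN-beta against LPS 5 ng/ml recovered 48, 49, 50 and 49 of 50, with 1 false call. The simulation drew independent normal noise for each gene and shifted the 4 h IFN-beta group alone. It held no batch and no array that stands apart, so it does not cover their effects.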

Additional observations from a re-analysis of the deposited data

Results flagged for a closer look

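The change from 1 h of LPS 5 ng/ml differed between the strains for 2 members. Tnfsf9 differed by -1.88 at 24 h (BALB/c minus C57BL/6, adjusted p = 0.000266 over the pair). The C57BL/6 arrays of 24 h read 8.25 and 9.33. The difference was -2.43 without the arrays that stood apart, replicate 1 among them, and -1.34 without replicate 2 of C57BL/6 at 24 h. Tnfsf10 differed by -1.20 at 24 h (adjusted p = 0.0148 over the pair), which no longer passed without replicate 2 of C57BL/6 at 4 h (adjusted p = 0.0995). Strain and preparation cannot be told apart here, and groups of 2 arrays are too small for a test of single outlying samples.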

How the results depend on the processing

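Of 2723 results of the 7 members under the alternatives, 2676 counted as unchanged, 20 lost a call and 10 gained one. In 2 uncalled values the sign changed by at least the SE of the difference. Another 15 called values turned, most of them of members that go both ways within a course. Called values were unchanged if call and direction held. Uncalled ones were read, where possible, at the time of their reported largest change. They were unchanged if still uncalled with the same sign, or moved by less than that SE. Counted from 1 h, Tnfsf10 was highest at 8 h, by 4.00, 6.39 and 5.54 at 0.5, 5 and 50 ng/ml, and Tnfsf9 fell most at 24 h, to -1.43, -2.70 and -2.98. In the larger batch the largest difference was -0.68 at 24 h for Tnfsf15 between IFN-beta and IFN-gamma, where the 4 h arrays of IFN-beta are missing, 2.19 at 2 h for Tnfsf10 between IFN-gamma and LPS, and -1.63 at 1 h for Tnfsf10 between 5 and 0.5 ng/ml. Without the arrays that stood apart it was -1.84 at 1 h for Tnfsf15 with 0.5 ng/ml. With each array left out in turn, the largest difference of Tnfsf10 ranged from -1.88 to 2.19 between IFN-gamma and LPS (2.19 without replicate 2 of IFN-gamma at 2 h), from -1.63 to 1.74 between 5 and 0.5 ng/ml (-1.63 without replicate 2 of 0.5 ng/ml at 1 h) and from -1.74 to 1.31 in the strains' responses (1.31 without replicate 1 of C57BL/6 at 1 h). That of Tnfsf15 at 0.5 ng/ml ranged from -1.84 to 1.72 (-1.84 without replicate 1 at 1 h, -1.52 without replicate 2 at 0 h). The count of called members was 2 for IFN-beta in the larger batch, and 0 for LPS 50 against 5 ng/ml when only the arrays compared were fitted. With each array left out in turn it ranged from 0 to 1 for LPS 50 against 5 ng/ml (0 without replicate 2 of either group at 4 h), from 1 to 2 for the strains' levels under LPS (1 without replicate 2 of C57BL/6 at 4 h or at 24 h) and from 1 to 2 for their responses (1 without replicate 2 of C57BL/6 at 4 h). The replicate block, for numbers that were not taken as pairs, changed 0 of 105 member results, with 5 members called for IFN-beta. The rise of Tnfrsf1b at 0.5 ng/ml was under the minimum with quantile normalization (0.93). The cause of these changes was not tested. Precision is limited by 2 arrays per group. The intensities come without a measure of background, so folds against dim groups, such as Tnfsf10 and Tnfsf15 at 0 h in BALB/c, are the least certain.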
